A study of Rattus norvegicus with 24 samples.

Results

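The let-7 family was followed in rat serum through its main strands, the 9 mature miRNAs rno-let-7a-5p, rno-let-7b-5p, rno-let-7c-5p, rno-let-7d-5p, rno-let-7e-5p, rno-let-7f-5p, rno-let-7g-5p, rno-let-7i-5p and rno-miR-98-5p. They were taken by name from 753 miRNA names, with the loci of 1 name summed. All 9 passed the low-count filter that left 136 names for testing. Small RNA of 23 male Wistar Kyoto rats was sequenced, 1 library per rat. From 4 weeks of age the rats ate either normal chow or a diet with 6% fish oil by weight for 8 weeks, and they were then placed in filtered air or in ozone at 0.8 ppm, 4 h per day, on 2 days. The groups are called normal air, normal ozone, fish oil air and fish oil ozone, with 6, 6, 6 and 5 libraries, since replicate 2 of fish oil ozone was not analysed here. Without a diet of another oil, an effect of fish oil and one of any added fat or other feed ingredient cannot be told apart.

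MiRNAs of the let-7 family are among the most conserved small RNAs of animals. They are scarce in early embryos, where the RNA-binding protein LIN28 blocks the processing of their precursors, and plentiful in differentiated tissues. They pair with target mRNAs mainly through the seed, bases 2 to 8 from the 5′ end, and known targets include RAS genes, HMGA2 and LIN28 itself. In blood they travel in vesicles and protein complexes and are also carried by blood cells, so that serum levels have several possible sources.

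The sequences are shown because all members share 1 seed and differ by few bases, which sets how well reads of one can be told from reads of another. All 9 names were found in the RefSeq table of mature miRNAs (assembly GRCr8), and each is 22 bases long. Capitals mark the seed.
rno-let-7c-5p: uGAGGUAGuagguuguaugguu
rno-let-7i-5p: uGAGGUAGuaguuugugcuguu
rno-let-7b-5p: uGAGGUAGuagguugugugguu
rno-let-7g-5p: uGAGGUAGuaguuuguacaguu
rno-let-7f-5p: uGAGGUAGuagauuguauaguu
rno-let-7a-5p: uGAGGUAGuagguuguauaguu
rno-let-7d-5p: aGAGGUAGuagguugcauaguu
rno-miR-98-5p: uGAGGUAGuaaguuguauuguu
rno-let-7e-5p: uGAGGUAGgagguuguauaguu
The seed GAGGUAG stood in 9 of the 693 mature names of that table, and these were the 9 members. With positions counted from 1 at the 5′ end and let-7a-5p as reference, let-7c-5p differs by A19G, let-7e-5p by U9G and let-7f-5p by G12A. Let-7b-5p differs by A17G and A19G, let-7d-5p by U1A and U16C, let-7g-5p by G12U and U18C, and miR-98-5p by G11A and A19U. Let-7i-5p is farthest from let-7a-5p, with G12U, A17G, U18C and A19U. Let-7b-5p and let-7c-5p differ at 1 position, and the most distant pair, let-7d-5p and let-7i-5p, at 6.

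The members come from 12 loci on 6 chromosomes, given here as in the files on build rn5, which do not say whether positions count from 0 or 1. Clusters on 17, 7 and X hold more than 1 member. On chromosome 17, let-7a-5p (18473978 to 18474000), let-7f-5p (18474341 to 18474363) and let-7d-5p (18476106 to 18476128) start within 2128 bases. On chromosome 7, a locus of let-7c-5p (126300934 to 126300956) lies 408 bases from let-7b-5p (126301342 to 126301364), and let-7i-5p (67000241 to 67000263) lies apart. On chromosome X, miR-98-5p (21867952 to 21867974) lies 611 bases from the other locus of let-7f-5p (21868563 to 21868585). Let-7c-5p is also on 11 (19708158 to 19708180), let-7a-5p on 8 (44228482 to 44228504), let-7g-5p on 8 (114237845 to 114237867) and let-7e-5p on 1 (60624053 to 60624075).

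The 3 members with 2 loci each had counts assigned to them in different shares. Each of the 3 has 1 mature sequence for both loci, so no base of the mature strand tells its loci apart. The shares therefore show how reads were assigned and do not by themselves measure the output of a locus. Let-7c-5p counts were split 50.1% to chromosome 11 and 49.9% to 7. Let-7f-5p had 90.8% on 17 and 9.22% on X. Let-7a-5p had 66.5% on 17 and 33.5% on 8, where the same bases are also annotated as miR-3596a, the exact reverse complement (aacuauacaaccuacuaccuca). Counts of let-7a-5p and miR-3596a at that locus were identical in 23 of 23 libraries. Adding them to let-7a-5p raised its total from 2559 to 3417 counts, and the chromosome 17 locus then held 49.8%. How reads were divided between both names was not stated, so the level of let-7a-5p is uncertain: all shared reads would make it 1.34 times the value used, and none of the chromosome 8 reads 0.665 times (1701 counts). Let-7e-5p shares its locus with miR-3596c, which held 7.61% of the counts of both.

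Levels are CPM, counts relative to the miRNA total of the library, after TMM scaling (edgeR's trimmed mean of M values). The members are equal in length, so length does not enter a comparison of their levels. How well each sequence is taken up into a library was not measured. The ranks below are therefore ranks of read counts and may differ from those of molecules in serum. Let-7c-5p had the highest level at 16969 ± 5726 CPM (SD, n = 23), which placed it at rank 11 of all names. Let-7i-5p followed at 16370 ± 4115 CPM (rank 13), let-7b-5p at 12196 ± 4169 CPM (rank 18) and let-7g-5p at 7320 ± 1809 CPM (rank 27). These 4 members held 86.9 ± 2.23% of the family counts, between 81.8 and 91.1% in the 23 libraries.

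The other 5 members were lower. Let-7f-5p reached 3277 ± 948 CPM (rank 42), let-7a-5p 2193 ± 668 CPM (rank 49) and let-7d-5p 1783 ± 335 CPM (rank 58). MiR-98-5p had 494 ± 191 CPM (rank 101), from 5 to 57 counts per library, and let-7e-5p 156 ± 93.7 CPM (rank 133), from under 1 to 17 counts. The floor used here, 3 counts, corresponds to 31.8 to 129 CPM before TMM scaling. Let-7e-5p lay under that floor in 4 libraries, all on fish oil, and its fold changes carry little information. Such floors and the intervals below cover counting error only, because PCR reads without molecular identifiers are not independent molecules.

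The order of the members was steady across rats, apart from let-7c-5p against let-7i-5p and the place of let-7a-5p. Let-7g-5p was above let-7f-5p, let-7d-5p above miR-98-5p and miR-98-5p above let-7e-5p in 23 of 23 libraries. Let-7f-5p exceeded let-7a-5p in 22, and let-7i-5p exceeded let-7b-5p, and let-7b-5p exceeded let-7g-5p, in 20 each. Let-7c-5p and let-7i-5p could not be ranked, with let-7c-5p higher in 11 of 23. Let-7a-5p was above let-7d-5p in 16 of 23. Both steps next to let-7a-5p depend on the reads shared with miR-3596a. With those added, let-7f-5p exceeded let-7a-5p in 16 libraries and let-7a-5p exceeded let-7d-5p in 22. Without the chromosome 8 locus these counts were 23 and 4. By group means the 9 members stood in 1 order in all 4 groups, except that let-7i-5p led in both air groups and let-7c-5p in both ozone groups.

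**Figure D1:**
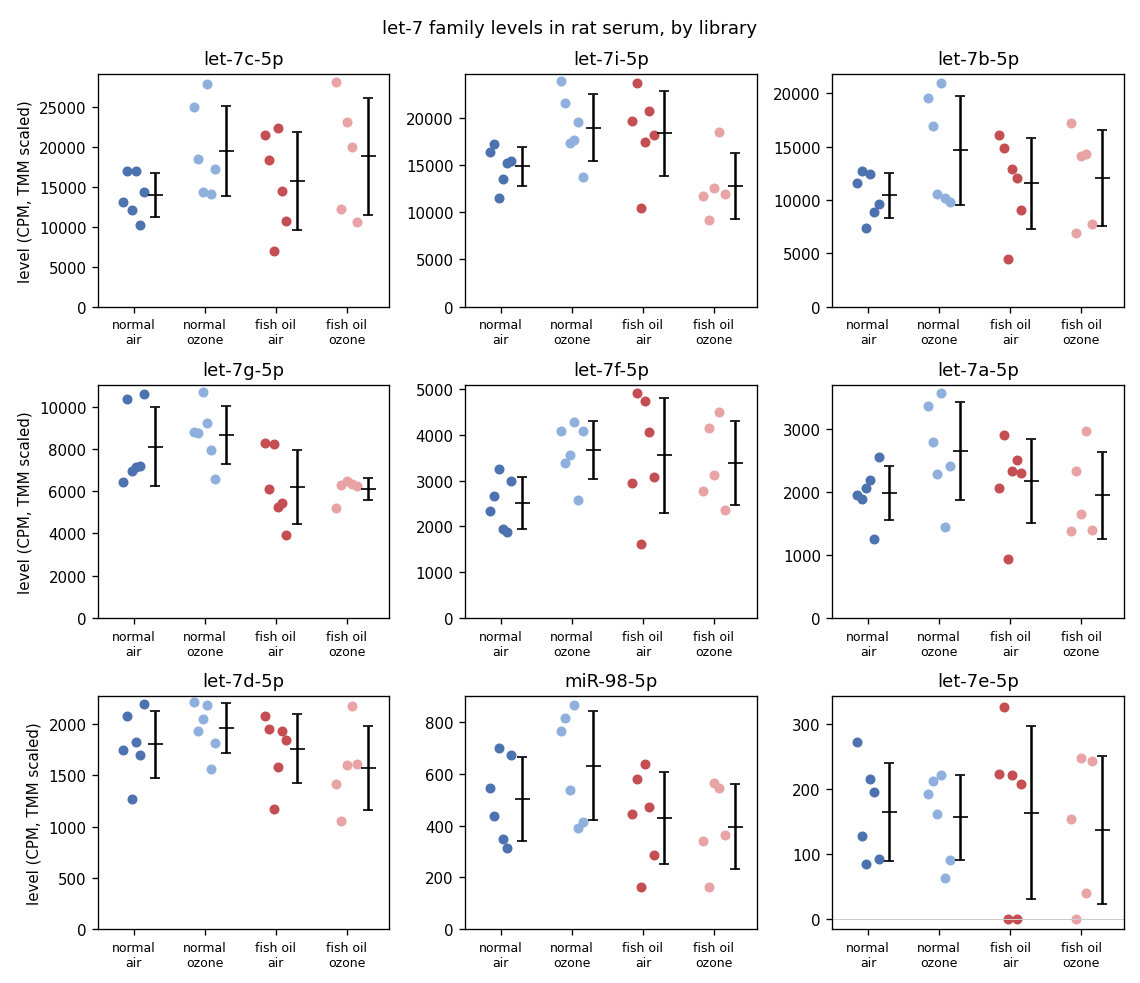
Levels of the 9 members in each library (CPM after TMM scaling, linear axes from 0), by diet and exposure. Points are rats and black bars are group means ± SD, and the fish oil libraries of let-7g-5p in ozone lie between 5202 and 6460 CPM, below all 6 normal diet libraries in ozone.

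Together the 9 members held 6.02 ± 1.13% of all miRNA counts (n = 23, range 3.92 to 8.74%). The share was 5.10 ± 0.83% on the normal diet in air (n = 6), with a lowest, median and highest value of 3.92, 5.06 and 6.33%. On the normal diet in ozone it was 6.94 ± 0.76% (5.77, 7.13 and 7.79%; n = 6). The groups overlapped, although the median in ozone exceeded every library in air.

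On fish oil the order of the exposures was the other way round. The share was 6.36 ± 1.28% in air (4.89, 6.21 and 8.74%; n = 6). In ozone it was 5.61 ± 0.73% (n = 5), with values of 6.46, 4.71, 6.27, 5.40 and 5.23% in replicates 1, 3, 4, 5 and 6. All 4 groups overlapped. In serum, a change in the number of cells that release a miRNA and a change in release per cell cannot be told apart.

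The share depends on a denominator that itself differed between diets. The median miRNA total was 61722.5 counts in normal air, 63547 in normal ozone, 39570 in fish oil air and 32988 in fish oil ozone. The authors' RPM values are scaled to a larger total, which was worked out here from counts over RPM and is called the implied read total (2243915 to 7729947 reads per library). All miRNA counts together made up a median of 1.179% of it in normal air and 1.398% in normal ozone. The medians were 0.737% in fish oil air and 0.713% in fish oil ozone. On that scale the family summed to 712 ± 336 RPM on the normal diet in air (332, 664 and 1225; n = 6) and 1044 ± 266 RPM in ozone (778, 1000 and 1391; n = 6). On fish oil it summed to 405 ± 79.04 RPM in air (315, 403 and 521; n = 6). In ozone it was 461 ± 188 RPM, with 407, 567, 719, 385 and 229 RPM in replicates 1, 3, 4, 5 and 6. Every fish oil library in ozone lay below every normal diet library in ozone, while the groups in air overlapped. The fish oil mean was 0.568 times that of the normal diet in air and 0.442 times in ozone, whereas the shares of the miRNA counts gave 1.25 and 0.810 times.

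**Figure D2:**
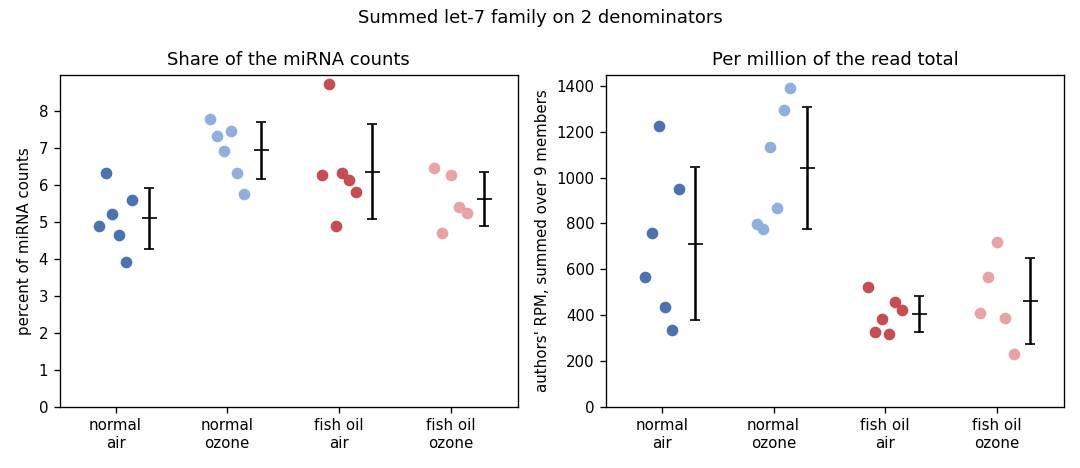
The summed family in each library as a percent of the miRNA counts (left) and as the sum of the authors' RPM values (right), by diet and exposure. Points are rats and black bars are group means ± SD, and the fish oil means are 405 and 461 RPM against 712 and 1044 on the right, and 6.36 and 5.61% against 5.10 and 6.94% on the left.

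Within the family, no member's share separated any of the groups. Let-7c-5p held 25.7 ± 2.77%, 27.3 ± 3.62%, 25.6 ± 4.83% and 32.1 ± 6.53% of the family counts in normal air, normal ozone, fish oil air and fish oil ozone. Let-7i-5p held 27.5 ± 3.17%, 27.1 ± 4.50%, 30.9 ± 4.09% and 22.6 ± 4.56% in the same order. Let-7g-5p held 14.9 ± 2.30%, 12.5 ± 2.69%, 11.4 ± 6.42% and 11.3 ± 3.31%. All of these ranges overlapped between groups. The wide spread of let-7g-5p in fish oil air came from replicate 3, where it made up 24.2% of the family against a group median of 8.54%. That library had the lowest level in its group for 7 of the 9 members and the lowest family sum of all libraries, 33927 CPM.

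**Figure D3:**
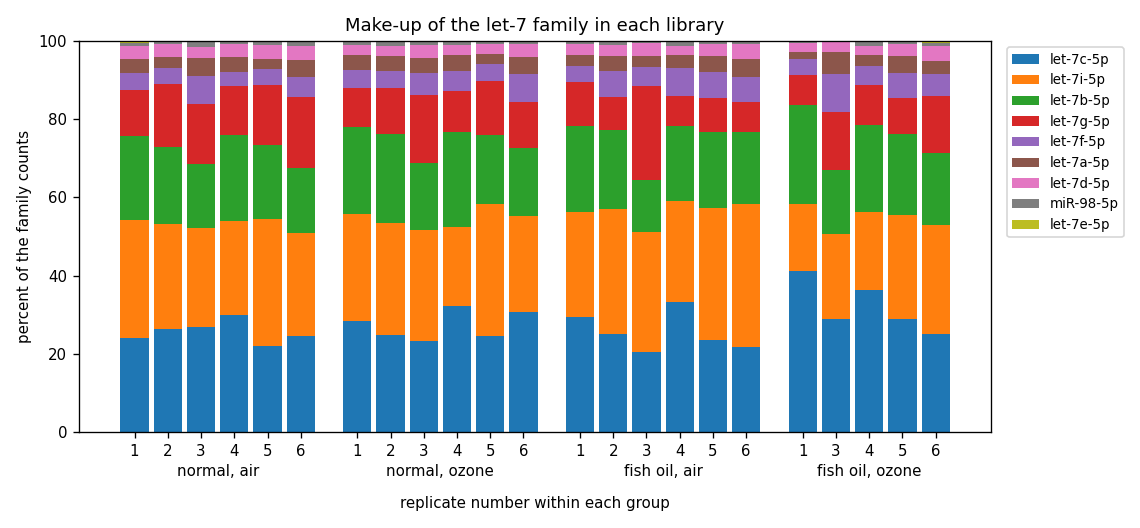
Make-up of the family in each of the 23 libraries, as percent of the family counts, stacked from let-7c-5p at the bottom to let-7e-5p at the top. The 4 lowest segments, let-7c-5p, let-7i-5p, let-7b-5p and let-7g-5p, fill 81.8 to 91.1% of every bar.

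The first question of the design is what the fish oil diet does, and averaged over both exposures only let-7g-5p fell among the 9 members. Let-7g-5p is encoded alone, away from the other let-7 genes. Its level was 8104 ± 1858 CPM on the normal diet in air (lowest 6413, median 7156, highest 10591) and 8660 ± 1361 CPM in ozone (6567, 8771 and 10681). On fish oil it was 6206 ± 1742 CPM in air (3921, 5770 and 8294) and 6107 ± 512 CPM in ozone, with 5202, 6279, 6460, 6340 and 6253 CPM in replicates 1, 3, 4, 5 and 6. The groups overlapped in air but not in ozone, where the highest fish oil value lay just under the lowest normal diet value. The share of all tested miRNAs without overlap in ozone was not counted.

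The log2 difference of let-7g-5p was −0.45 (SE 0.15, edgeR quasi-likelihood adjusted p = 0.0165), and 9 of 11 fish oil libraries lay below the normal diet mean of their exposure. The call held in each of the 23 fits that left out 1 library (edgeR adjusted p from 0.00567 to 0.0419). It was lost when counts were scaled to the miRNA total without TMM (−0.32, edgeR adjusted p = 0.124). Let-7g-5p also had one of the smallest spreads between rats, with a biological coefficient of variation that ranked 4 from the lowest of 136.

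Of all tested miRNAs 36.8% were called in either direction and 16.9% were called lower, so 1 of 9 lower is near the background. The members' median log2 difference was −0.13 against +0.06 over all 136. Negative values were found for 7 of the 9, against 47.1% of all. Here and below, the signs of members are not separate observations. The members varied together between rats, with a median Pearson r of 0.51 between pairs when group means were taken out. MiR-98-5p had a difference as large as that of let-7g-5p, −0.45, but with an SE of 0.25 (edgeR adjusted p = 0.147). Let-7f-5p was at +0.19 and let-7c-5p at +0.06, while let-7d-5p (−0.18), let-7a-5p (−0.16), let-7i-5p (−0.13), let-7b-5p (−0.07) and let-7e-5p (−0.05) were negative. The edgeR adjusted p-values of these 7 ran from 0.403 to 0.941.

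In filtered air alone 0 of the 9 passed, where 5.88% of all miRNAs were called in either direction. The median was +0.13 against +0.08 over all. At an unadjusted p below 0.05 there was 1 member, let-7f-5p, against 39 of all 136. Let-7f-5p was at 2512 ± 563 CPM on the normal diet (1874, 2504 and 3252) and 3561 ± 1256 CPM on fish oil (1612, 3575 and 4926), with 5 of 6 fish oil libraries above the normal diet mean. Both groups overlapped, and the log2 difference of +0.50 (SE 0.24) had an edgeR adjusted p of 0.166. Without fish oil air replicate 3, the library with the lowest family sum, it was +0.65 and passed (edgeR adjusted p = 0.0473). Let-7g-5p was at −0.39 (SE 0.20, edgeR adjusted p = 0.187).

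In ozone 0 of 9 passed as well, where 22.8% of all were called, but all 9 members had a negative difference against 50% of all miRNAs. Their median was −0.32 against 0.00 over all, and their signs are not 9 separate observations. At an unadjusted p below 0.05 there were 2 members, let-7i-5p and let-7g-5p, against 47 of all. Let-7i-5p, a member encoded alone and known for regulating innate immune receptors, was at 18930 ± 3551 CPM on the normal diet (13711, 18563 and 23881). On fish oil it was at 12757 ± 3454 CPM, with 11697, 9140, 12605, 18475 and 11868 CPM in replicates 1, 3, 4, 5 and 6. All 5 fish oil libraries lay below the normal diet mean, and the groups overlapped through replicate 5.

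The call of let-7i-5p in ozone sat at the edge of the threshold. Its log2 difference was −0.57 (SE 0.22, edgeR adjusted p = 0.0584). It passed in 17 of the 23 fits that left out 1 library, with edgeR adjusted p-values from 0.0173 to 0.0907. The 6 in which it did not pass left out normal air 2, normal ozone 3 or 5, fish oil air 2 or 5, or fish oil ozone 3. Of the 10 other settings, 5 passed, DESeq2 among them (adjusted p = 0.00976). Let-7g-5p was at −0.50 (SE 0.21, edgeR adjusted p = 0.0864), with 5 of 5 libraries below and no overlap with the normal diet. Such separation was not counted over all miRNAs, of which 22.8% were called in this contrast. It passed without fish oil air replicate 6 (edgeR adjusted p = 0.0422). MiR-98-5p was at −0.66 (SE 0.36, edgeR adjusted p = 0.186), let-7a-5p at −0.45, let-7d-5p at −0.32, let-7b-5p at −0.28, let-7f-5p at −0.12, let-7e-5p at −0.10 and let-7c-5p at −0.05.

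When the implied read total served as library size, nearly the whole family was called lower on fish oil. Averaged over exposures 8 of 9 members were called lower on that scale, all but let-7e-5p (−0.90, edgeR adjusted p = 0.109), beside 51.5% of all miRNAs called lower. The members' median was −1.06, and that of all 136 was −0.87. MiR-98-5p had the lowest value, −1.46 (SE 0.34, edgeR adjusted p = 0.000729), and let-7g-5p followed at −1.31 (SE 0.30, edgeR adjusted p = 0.000611). The others called were let-7d-5p (−1.09), let-7a-5p (−1.07), let-7i-5p (−1.06), let-7b-5p (−0.94), let-7c-5p (−0.87) and let-7f-5p (−0.81).

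The RPM values behind this were lower on fish oil, on a scale where the median of all miRNA counts together was lower too. Let-7g-5p was at 109 ± 60.6 RPM in normal air (50.9, 94.5 and 188) and 46.2 ± 25.9 RPM in fish oil air (24.6, 36.8 and 92.7). It was at 133 ± 51.6 RPM in normal ozone (79.9, 127 and 197), and at 31.0, 84.2, 73.1, 35.2 and 33.6 RPM in fish oil ozone replicates 1, 3, 4, 5 and 6. Both pairs of groups overlapped, but 11 of 11 fish oil libraries lay below the normal diet mean on the log2(RPM + 1) scale. The same held for 6 other members (let-7a-5p, let-7b-5p, let-7c-5p, let-7d-5p, let-7i-5p and miR-98-5p), with 10 of 11 for let-7e-5p and 9 of 11 for let-7f-5p. How many of all tested miRNAs did so was not counted. With limma on that scale the median log2 difference of all 136 was −0.74, and 51.5% were called lower. By exposure the implied read total gave 2 of 9 lower in air, let-7g-5p and miR-98-5p, beside 27.2% of all. It gave 6 of 9 in ozone, all but let-7c-5p, let-7e-5p and let-7f-5p, beside 33.8% of all.

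**Figure D4:**
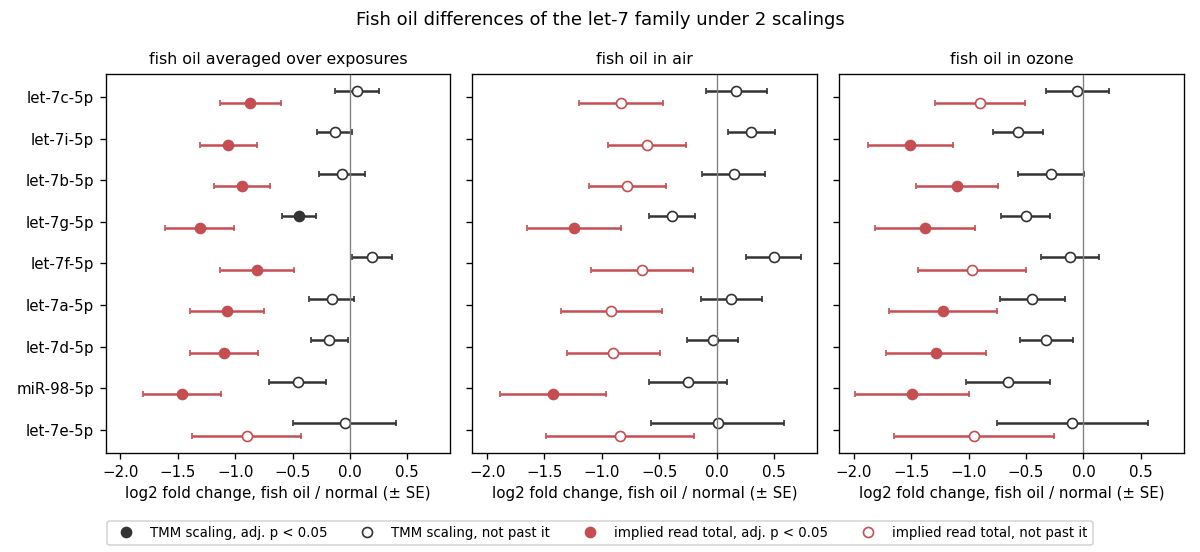
Log2 fold change of each member on fish oil against the normal diet (points, ± SE), averaged over exposures, in air and in ozone, with TMM scaling in black and the implied read total as library size in red. Filled points passed an edgeR adjusted p of 0.05: 1, 0 and 0 of 9 in black and 8, 2 and 6 of 9 in red.

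Ozone is the other factor of the design, and no member passed for it on either diet. Averaged over diets 0 of 9 were called (0.735% of all), and 0 had an unadjusted p below 0.05 in edgeR, with a median of +0.10 against −0.02 over all. Let-7c-5p had the highest value, +0.37 (SE 0.19, edgeR adjusted p = 0.794). On the normal diet 0 of 9 were called (0% of all), with 1 member and 4 of all miRNAs at an unadjusted p below 0.05 in edgeR. DESeq2 called 0 members there too.

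On the normal diet 8 of the 9 values were positive, against 74 negative of all 136. The members' median was +0.35 and that of all was −0.04. Let-7f-5p went from 2512 ± 563 to 3668 ± 633 CPM (2582, 3829 and 4288 in ozone), with 6 of 6 ozone libraries above the air mean and an overlap between groups. Its difference was +0.54 (SE 0.24), with an unadjusted p of 0.0306 and an edgeR adjusted p of 0.939. Let-7c-5p went from 14010 ± 2713 CPM (10285, 13781 and 17083) to 19559 ± 5681 CPM (14195, 17894 and 27897), also above the air mean in 6 of 6. Its difference was +0.48 (SE 0.26, edgeR adjusted p = 0.939). The neighbour of its chromosome 7 locus, let-7b-5p, was at +0.49 (SE 0.27).

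On fish oil ozone again gave 0 of 9 called (0% of all), with 1 member and 10 of all at an unadjusted p below 0.05 in edgeR. The median was −0.10 against −0.02 over all. That member was let-7i-5p, at 18329 ± 4461 CPM in fish oil air (10408, 18896 and 23652), with the ozone values given above. Its difference was −0.52 (SE 0.22), with an unadjusted p of 0.0227 and an edgeR adjusted p of 0.659. Let-7c-5p was at +0.26 and the remaining 7 lay between −0.17 and +0.06.

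Whether the difference by ozone depended on diet was tested with the interaction, and 0 of 9 members passed (0% of all). All 9 were negative, against 54.4% of all miRNAs, with a median of −0.41 against −0.05. These signs, again, are not 9 separate observations. Let-7i-5p was farthest from 0 at −0.87 (SE 0.30), with an unadjusted p of 0.00663 and an edgeR adjusted p of 0.468. It was +0.35 by ozone on the normal diet and −0.52 on fish oil. Let-7f-5p was at −0.62 (SE 0.35), let-7a-5p at −0.57 (SE 0.39) and let-7b-5p at −0.43 (SE 0.40). At an unadjusted p below 0.05 in edgeR there were 1 member and 6 of all miRNAs, and DESeq2 called 0 (let-7i-5p adjusted p = 0.0847). Let-7i-5p was called in 0 of 9 other settings. Its adjusted p ran from 0.0501 (edgeR, miRNA total without TMM, −1.08) to 0.999 (limma on log2(RPM + 1), −0.97). Fits of one design share control libraries, so these values and those by diet are not separate evidence.

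The members varied together between rats more than miRNAs in general. With group means taken out, the 36 pairs of members had a median Pearson r of 0.51 on log2 CPM (23 libraries), from −0.17 to 0.92, beside a median of 0.01 for the 9180 pairs of all tested miRNAs. These points share libraries, depth and TMM scaling, and the values are descriptions. The closest pair was let-7b-5p and let-7c-5p (r = 0.92), which are 1 base apart and neighbours on chromosome 7. Let-7a-5p and let-7f-5p, neighbours on 17 and also 1 base apart, had r = 0.86. Let-7d-5p of the same cluster had r = 0.55 with let-7a-5p and 0.34 with let-7f-5p. MiR-98-5p had r = 0.62 with let-7f-5p summed over both loci, where 9.22% of the counts were assigned to the locus beside miR-98-5p on X. How much of this comes from reads that match several names was not tested.

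Let-7g-5p stood aside from the rest of the family. Its r with the other 8 members ran from −0.17 (let-7e-5p) to 0.18 (let-7d-5p), again with group means taken out. With group means left in, the tested miRNA most like it over all 23 libraries was miR-326-3p (r = 0.58). For let-7i-5p it was let-7d-5p (0.79), for let-7d-5p miR-423-3p (0.81), for miR-98-5p miR-92b-3p (0.82) and for let-7e-5p miR-423-5p (0.69). Taking group means out changed the nearest name to miR-3559-5p for let-7g-5p (0.51) and to miR-320-3p for let-7i-5p (0.87). The names for let-7d-5p, miR-98-5p and let-7e-5p stayed the same. Let-7a-5p (0.92) and let-7f-5p (0.86) were most like miR-3596a, whose counts are those of let-7a-5p on chromosome 8. The summed family was most like miR-107-3p (0.73), miR-351-5p (0.72), miR-30d-5p (0.70), miR-320-3p (0.68) and miR-3596a (0.68).

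The other arms of the let-7 hairpins, which are usually degraded, were few. Of 12 passenger names, 3 were tested. Let-7d-3p was the exception among the 6 hairpins whose arms each have 1 name of their own, with 4084 counts in all against 2114 of let-7d-5p. In the other 5 the main strand prevailed, from 177 against 34 counts for let-7e to 19140 against 12 for let-7i, and let-7g-3p had 0. The ratio of let-7d-3p to let-7d-5p was 2.19 ± 0.86 in normal air (1.26, 2.01 and 3.66) and 2.29 ± 0.58 in normal ozone (1.62, 2.27 and 2.97). In fish oil air it was 1.47 ± 0.79 (0.871, 1.14 and 2.98), and in fish oil ozone 2.17, 1.59, 1.66, 0.786 and 1.36 in replicates 1, 3, 4, 5 and 6. The groups overlapped, and the ratio was not tested. Let-7d-3p fell by 0.83 on the log2 scale with fish oil averaged over exposures (edgeR adjusted p = 0.00156), while let-7d-5p was at −0.18 (edgeR adjusted p = 0.403). Let-7a-1-3p (+0.81, edgeR adjusted p = 0.0665) and let-7c-2-3p (+0.65, 0.0793) have identical sequences and cannot be told apart.

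Some let-7 genes are transcribed together with miR-99, miR-100 and miR-125 genes, and 4 of these 5 partners could be tested. With fish oil averaged over exposures 1 of 4 rose and 3 did not pass, where 27 of all 136 were called higher. MiR-100-5p, whose locus starts 6320 bases from let-7a-5p on chromosome 8, rose by 0.61 on the log2 scale (edgeR adjusted p = 0.0320). MiR-99a-5p, 723 bases from let-7c-5p on 11, was at +0.35 (edgeR adjusted p = 0.378). MiR-99b-5p, 173 bases from let-7e-5p on 1, was at +0.39 (edgeR adjusted p = 0.0887), and miR-125a-5p in the same cluster was at +0.41 (0.204). MiR-125b-5p had too few counts for the filter. All 4 values were positive, while 47.1% of all miRNAs were negative. The let-7 names found in those clusters lay at −0.16 (let-7a-5p), +0.06 (let-7c-5p) and −0.05 (let-7e-5p), and that difference was not tested. The values of let-7a-5p and let-7c-5p sum 2 loci each. Only 33.5% of let-7a-5p counts were assigned to chromosome 8 and 50.1% of let-7c-5p counts to 11.

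Markers of cells and tissues that could carry let-7 into serum were called about as often as all miRNAs: with fish oil averaged over exposures 3 were higher and 4 lower of 17 tested, or 41.2% beside 36.8% of all, with miR-223-3p counted in 2 lists. Of the platelet list (miR-223-3p, miR-191a-5p, miR-126a-3p and miR-24-3p) 2 of 4 fell and 1 rose, and their summed level went from 187890 to 357940 CPM in normal air and 207580 to 357590 in normal ozone to 52247 to 160410 in fish oil air and 40865 to 125810 in fish oil ozone. Those summed ranges did not overlap between diets, but miR-191a-5p alone made up 79.2 to 96.9% of the sum. Without it the list lay at 9631 to 12923, 8253 to 13261, 6562 to 11396 and 7157 to 11727 CPM, and the diets overlapped. Of the erythrocyte list 2 of 4 tested rose (12509 to 19693, 10826 to 20424, 15311 to 23028 and 10712 to 24076 CPM in the same order of groups). The median log2 difference of these 4 was +0.78. MiR-16-5p made up most of their sum, with a mean of 841 counts per library. MiR-451-5p had 29.4, miR-144-3p 11.3 and miR-144-5p 10.3. Of the leukocyte list 1 of 3 fell (2717 to 7802, 3719 to 9734, 2829 to 7485 and 2370 to 8712 CPM).

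The liver list had 1 of 3 lower, at 63371 to 189610, 47639 to 137710, 29150 to 67559 and 63654 to 161300 CPM. MiR-192-5p led that sum with a mean of 3517 counts per library, against 1135 of miR-122-5p and 10.4 of miR-194-5p. On fish oil in air 2 of 3 were lower, beside 5.15% of all, and in ozone 0 of 3, beside 10.3%. The striated muscle list had 0 of 3 past the test, at 53.8 to 3673, 363 to 2895, 554 to 3767 and 1052 to 2100 CPM. MiR-486 is not in the table under that name, and no list summed to 0 in any library. The log2 difference of miR-451-5p and miR-23a-3p, an index of red cell lysis, was −2.07 ± 0.51, −2.65 ± 0.94, −1.83 ± 0.62 and −2.11 ± 1.21. With that index as a covariate let-7g-5p still passed with fish oil averaged over exposures (−0.49, edgeR adjusted p = 0.0122). The part of the other cell types in the let-7 values was not tested.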

How the data were processed

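Members, marker lists and tests were chosen with earlier results of these data known. The authors deposited expected counts per mature miRNA locus (832 loci, 42 with fractions) and RPM values scaled to an unstated read total. The submitters' processing notes name Bowtie 1.0.0, Partek, bcl2fastq and the build rn5. The handling of reads with several matches is not given in the sources used here, nor are the order of steps and any filters. Loci of 1 name were summed and rounded to whole counts, 23279 to 94264 per library. RPM equals counts over the implied read total plus 0.0001, to within 0.0328 reads.

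Counts were tested in R 4.3.3 with edgeR 4.0.16 (TMM, filterByExpr by group with minimum count 10 and minimum total 15, robust quasi-likelihood F test, two-sided, 1 mean per group, 7 contrasts). Benjamini-Hochberg adjustment ran over the 136 names, with a threshold of 0.05; rose, fell and called refer to it. All 4 groups shared 1 estimate of the spread. Each library is 1 rat, and the labels give no batch. Alternatives used DESeq2 1.42.0, limma 3.58.1 on log2(RPM + 1), other scalings, no filter, the highest locus, no miR-3596 names, a haemolysis covariate, only the compared groups, and each library left out; adding miR-3596 reads to let-7 names was chosen after seeing the data. Correlations used log2 CPM with a prior count of 2. Intervals are 95% Wilson intervals. Named were all 9 members, the miRNAs most correlated with the family sum (5) or with each member (1), the tested passenger strands, the cluster partners and miR-3596 names.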

Additional observations from a re-analysis of the deposited data

Results flagged for a closer look

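In fish oil ozone, let-7g-5p of replicate 1 lay below a tight group: it was at 5202 CPM, and the other 4 libraries lay between 6253 and 6460 CPM. In fish oil air, the family share of replicate 2 lay above the others, at 8.74% of the miRNA counts (95% Wilson interval 8.39 to 9.11%), against 4.89 to 6.32% in the other 5. That library had the lowest miRNA total of all, 23279 counts. In all, 40 groups of values (9 members and the family share in 4 groups) were looked through for such gaps and 2 stood out, where chance alone gives about 1 in 20.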

How the results depend on the processing

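No paired analysis was possible because animal numbers differ between the groups and pair no rats. Depth limits let-7e-5p and miR-98-5p most. For reversals below, the cause was not tested, and none of the values in TMM scaling that they turn was called. Values are log2 fold changes unless named otherwise.

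When the implied read total was the library size, 8 members were called on fish oil averaged, 2 in air and 6 in ozone. The members' medians were −1.06, −0.84 and −1.23. Of all miRNAs 51.5, 27.2 and 33.8% were called lower in the same order, with medians of −0.87, −0.78 and −0.96. Averaged, let-7c-5p turned to −0.87 and let-7f-5p to −0.81. In air, let-7a-5p turned to −0.92, let-7b-5p to −0.78, let-7c-5p to −0.84, let-7e-5p to −0.84, let-7f-5p to −0.65 and let-7i-5p to −0.61. For ozone averaged, let-7d-5p turned to 0.18, let-7e-5p to 0.16 and let-7i-5p to 0.13. On the normal diet let-7e-5p turned to 0.21. On fish oil let-7a-5p turned to 0.17, let-7e-5p to 0.10, let-7f-5p to 0.31, let-7g-5p to 0.15 and miR-98-5p to 0.17.

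With limma on log2(RPM + 1), the members called were 8, 1 and 7, with medians of −0.99, −0.71 and −1.21. Of all miRNAs 51.5, 23.5 and 35.3% were called lower there, with medians of −0.74, −0.68 and −0.80. Averaged, let-7c-5p turned to −0.86 and let-7f-5p to −0.69. In air, let-7a-5p turned to −0.68, let-7b-5p to −0.73, let-7c-5p to −0.71, let-7e-5p to −0.61, let-7f-5p to −0.36 and let-7i-5p to −0.53. For ozone averaged, let-7d-5p turned to 0.19, let-7e-5p to 0.064 and let-7i-5p to 0.13. On the normal diet let-7e-5p turned to 0.13. On fish oil let-7a-5p turned to 0.024, let-7e-5p to 0.00090, let-7f-5p to 0.14, let-7g-5p to 0.18 and miR-98-5p to 0.055.

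With total count scaling 0 members were called averaged (fish oil) and 1 in ozone, beside 9.56 and 8.82% of all called lower. Let-7b-5p turned to 0.021 and let-7e-5p to 0.080 averaged, let-7d-5p to 0.17 in air, let-7e-5p to 0.039 by ozone on the normal diet and let-7b-5p to −0.043 by ozone on fish oil. DESeq2 called 1 member in ozone, beside 12.5% of all called lower, and let-7e-5p turned to −0.043 in air. The highest locus called 1 in ozone, beside 10.4% of all called lower. It turned let-7e-5p to −0.024 in air and gave family shares of 6.03% in normal ozone and 4.73% in fish oil ozone. Without a filter let-7c-5p turned to −0.045 averaged, let-7e-5p to −0.098 in air, let-7d-5p to 0.0021 for ozone averaged and let-7g-5p to 0.012 by ozone on fish oil. The haemolysis covariate turned let-7c-5p to 0.035 for fish oil in ozone and let-7g-5p to 0.017 by ozone on fish oil. Adding miR-3596 reads turned let-7e-5p to 0.28 averaged, 0.39 in ozone, 0.059 for ozone averaged, 0.17 by ozone on fish oil and 0.22 in the interaction. Family shares without the 5 most abundant names were 10.7, 13.7, 12.7 and 11.4% in normal air, normal ozone, fish oil air and fish oil ozone, and as percent of the implied read total 0.0712, 0.104, 0.0405 and 0.0461%. Only the compared groups in the fit left let-7e-5p out of 3 contrasts.

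Leaving out 1 library gave 0 to 1 members called on fish oil in air and 0 to 2 in ozone. The share of all miRNAs called in those fits was not counted. Averaged, let-7b-5p ranged from −0.21 to 0.017, let-7c-5p from −0.10 to 0.14 and let-7e-5p from −0.23 to 0.085. In air, let-7a-5p ranged from −0.031 to 0.29, let-7b-5p from −0.046 to 0.31, let-7c-5p from −0.014 to 0.33, let-7d-5p from −0.15 to 0.063 and let-7e-5p from −0.26 to 0.27. In ozone, let-7c-5p ranged from −0.31 to 0.075 and let-7e-5p from −0.41 to 0.18. For ozone averaged, let-7d-5p ranged from −0.089 to 0.023, let-7e-5p from −0.25 to 0.052 and let-7g-5p from −0.026 to 0.096, and on the normal diet let-7e-5p from −0.21 to 0.13. By ozone on fish oil, let-7b-5p ranged from −0.14 to 0.22, let-7e-5p from −0.43 to 0.16, let-7f-5p from −0.22 to 0.041, let-7g-5p from −0.18 to 0.082 and miR-98-5p from −0.26 to 0.070. In the interaction let-7e-5p ranged from −0.38 to 0.22.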
